A study of Homo sapiens with 12 samples.

Results

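The 10 genes described here import cystine, make and recycle glutathione, or respond to the transcription factor NRF2, and their transcripts were followed in HEK293T cells depleted of MED26. They are 10 of 19775 measured genes and were taken by name, with earlier results of these data known: SLC7A11, GCLC, GCLM, GSR, GPX4, TXNRD1, SRXN1, NQO1, HMOX1 and NFE2L2. HEK293T is an established line from human embryonic kidney that expresses a viral large T antigen. MED26 belongs to Mediator, which connects transcription factors with RNA polymerase II. Each of 4 groups held 3 Affymetrix arrays. Cells of 3 groups were transfected with 25 nM of an siRNA against MED26 (s18074, s18075 or s18076), cells of the control group with 25 nM of non-targeting siRNA, and RNA was extracted 48 hours later. The labels give each control replicate a differently numbered non-targeting siRNA, whereas the protocol names a single one. All groups are transfected cells of this 1 line, and the labels do not say that the replicates were separate cultures, so the p-values reflect only how far these arrays scatter, and that scatter may be technical.

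Cystine, the oxidised pair of cysteine molecules, enters cells through the antiporter system xc-, whose light chain is SLC7A11 and whose heavy chain is SLC3A2. The cell reduces it to cysteine, the limiting building block of glutathione, the main thiol antioxidant. NRF2 (encoded by NFE2L2) is held low by KEAP1 and, when oxidants or electrophiles disable KEAP1, binds antioxidant response elements in genes of glutathione synthesis, thioredoxin reduction and detoxification. SLC7A11 is a known target of NRF2 and also of ATF4, the transcription factor of the amino acid response.

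Levels are log2 intensity of the brightest probe set of a gene, and differences are log2 fold changes, each ± the standard error of a limma model over all 12 arrays. A gene was called where its Benjamini-Hochberg adjusted p over all 19775 genes was under 0.05. Median intensity per array ran from 72.3 to 73.8, and precision is limited by the number of arrays. On its brightest probe set MED26 itself was at 9.84, 9.87 and 9.84 in the control arrays and at 8.79, 8.69 and 8.76 with s18074. It was at 9.41, 9.16 and 9.28 with s18075 and at 8.80, 8.79 and 8.73 with s18076. On this probe set its signal was reduced in every knockdown array and least with s18075. Its dimmer probe sets, averaging 6.22 and 5.38 in the controls, passed with no siRNA. The former gave -0.27, 0.30 and -0.30 with s18074, s18075 and s18076, and the latter 0.33, 0.13 and 0.18. Averaged over all MED26 probe sets, the s18075 change was -0.04 (limma adjusted p = 0.821). Among 6 measured markers of HEK293 cells, 0 lay among the dimmest 40% of genes, against 5 of 7 fibroblast, 4 of 5 blood cell and 3 of 4 carcinoma line markers. Those HEK293 markers summed to intensities of 8713 to 9002 in the control arrays and 6058 to 6500 in the knockdown arrays, 3 of 6 were called lower in the mean of the 3 siRNAs, and their part in the results was not tested. The fibroblast markers summed to 760 to 813 in the controls and 676 to 778 in the knockdowns, and 2 of 7 were called lower. In bulk RNA, fewer cells of a type and less RNA per cell cannot be told apart. The replicate 1 arrays stood apart in every group: their deviations from the group means correlated with each other at 0.326 to 0.439, and values from replicates 2 and 3 alone are given beside the results they change.

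The regulatory sequence was examined because the members share a textbook regulator. Of the 10 members, 7 had entries in a table of RefSeq promoters (GRCh38.p14, windows over a start site and the bases before it), with 11 promoters among them. SLC7A11, GSR and HMOX1 had no entry, so their promoters were not searched. Both strands were searched for the antioxidant response element core TGACNNNGC and for the C/EBP-ATF response element TGATGNAA, which ATF4 and its partners bind. The first was found in 13.3% of all 35116 promoters of this length and the second in 3.62%. GCLM held 1 match to the first motif, and the 2 TXNRD1 promoters held 2 and 1. No promoter of GCLC, GPX4, SRXN1, NQO1 or NFE2L2 held a match in this window, and 0 of the 11 held the second motif. A match is a string of letters and not a measured binding site, and both motifs can lie outside this window. The promoters of GCLC and GCLM, which encode the subunits of 1 enzyme but differed in their calls, and of NQO1, the only member called higher than the controls, are shown 5′ to 3′ on the gene's strand, with the match to the first motif, here on the opposite strand, in capitals.
GCLM, chr1:93909381-93909680, minus strand: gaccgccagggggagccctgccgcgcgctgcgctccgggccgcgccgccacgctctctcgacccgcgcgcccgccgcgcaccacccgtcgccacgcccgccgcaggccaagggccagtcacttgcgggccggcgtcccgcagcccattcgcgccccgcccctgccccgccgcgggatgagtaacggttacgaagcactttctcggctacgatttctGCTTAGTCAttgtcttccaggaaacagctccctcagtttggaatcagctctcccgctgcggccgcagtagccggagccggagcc
GCLC, chr6:53545052-53545351, minus strand: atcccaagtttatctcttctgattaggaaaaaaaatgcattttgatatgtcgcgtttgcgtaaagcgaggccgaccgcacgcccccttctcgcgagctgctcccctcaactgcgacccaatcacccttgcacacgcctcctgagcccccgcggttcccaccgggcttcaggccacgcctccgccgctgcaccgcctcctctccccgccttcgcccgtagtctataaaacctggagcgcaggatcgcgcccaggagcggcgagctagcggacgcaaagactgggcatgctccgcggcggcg
NQO1, chr16:69726511-69726810, minus strand: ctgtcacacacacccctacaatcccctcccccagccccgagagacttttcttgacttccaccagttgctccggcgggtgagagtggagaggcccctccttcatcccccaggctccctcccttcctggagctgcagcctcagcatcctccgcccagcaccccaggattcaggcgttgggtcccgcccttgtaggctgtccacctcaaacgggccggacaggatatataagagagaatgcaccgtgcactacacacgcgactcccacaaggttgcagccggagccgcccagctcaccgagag

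The first question was how the transcripts of cystine import responded. SLC7A11 fell with every siRNA, to 46.3% of the control signal with s18074, 33.6% with s18075 and 43.9% with s18076. The controls read 9.67, 9.59 and 9.62 on the brightest probe set. The s18074 arrays read 8.41, 8.52 and 8.64, the s18075 arrays 8.13, 8.01 and 8.03, and the s18076 arrays 8.41, 8.58 and 8.33. All 9 knockdown arrays lay below all 3 controls, and the s18075 arrays lay below those of the other siRNAs. The change was -1.11 ± 0.08 with s18074, -1.57 ± 0.08 with s18075 and -1.19 ± 0.08 with s18076 (limma, Benjamini-Hochberg adjusted p = 2.89e-06, 1.08e-07 and 7.80e-07). Without any 1 of the 12 arrays the mean change of the 3 siRNAs stayed between -1.31 and -1.27, and in replicates 2 and 3 alone it was -1.26 ± 0.07.

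SLC7A11 was also lower with s18075 than with s18074, by a log2 difference of -0.46 ± 0.08 (limma adjusted p = 0.00265), and higher with s18076 than with s18075 by 0.39 ± 0.08 (adjusted p = 0.00557). Between s18076 and s18074 the difference was -0.08 (95% interval -0.24 to 0.09, adjusted p = 0.716). The order of the SLC7A11 levels did not follow that of MED26. On its brightest probe set MED26 kept 67.5% of its control signal with s18075, more than with s18074 (46.6%) or s18076 (47.3%). SLC7A11, in contrast, was lowest with s18075. With 3 siRNAs this is a description of 3 points.

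The further SLC7A11 probe sets also read lower in the knockdown arrays. The second brightest averaged 8.85 ± 0.17 (SD, n = 3) in the controls and 7.80 ± 0.10, 7.41 ± 0.02 and 7.80 ± 0.08 with s18074, s18075 and s18076, with s18075 again lowest. Its mean change over the 3 siRNAs was -1.18 ± 0.07 (limma adjusted p = 1.49e-06 over all probe sets). The third, dim probe set, at 6.00 ± 0.08 in the controls, changed by -0.31 ± 0.07 (adjusted p = 0.00755), and there the lowest group was s18074, at 5.61 ± 0.09. On that probe set the change with s18076 did not pass (adjusted p = 0.0690).

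**Figure D1:**
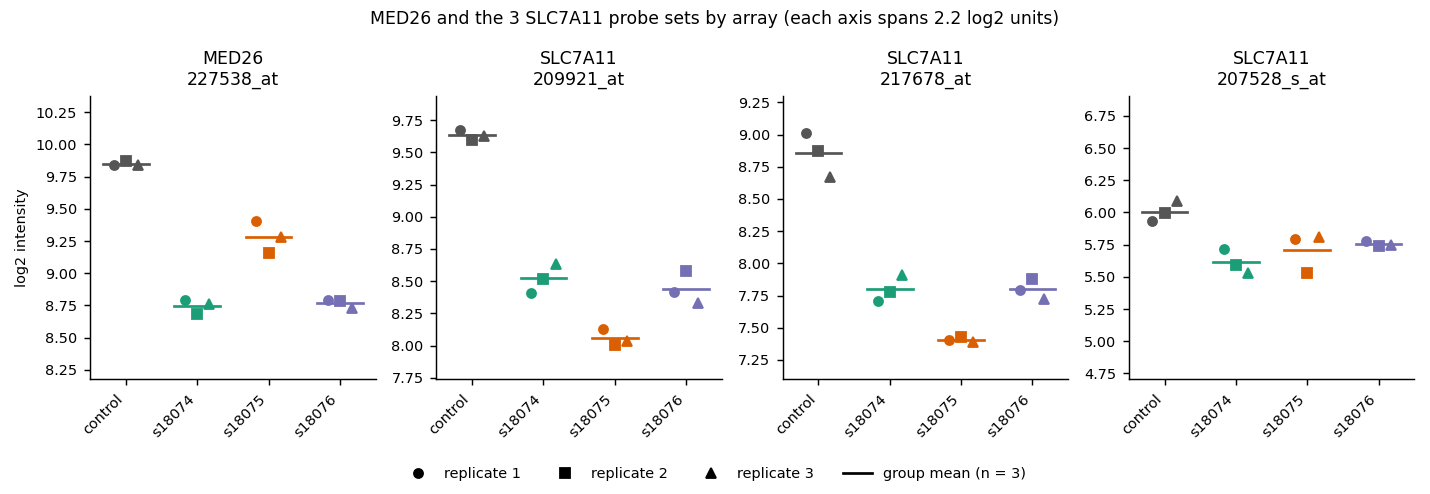
Log2 intensity (vertical axes, each spanning the same range) of MED26 and of the 3 SLC7A11 probe sets in the 4 groups of 3 arrays, with symbols for replicates and bars for group means. SLC7A11 on its brightest probe set lay between 9.59 and 9.67 in the controls and between 8.01 and 8.64 in the knockdown arrays.

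SLC3A2, the heavy chain that carries SLC7A11 to the membrane, was not called with any siRNA. It averaged 10.34 ± 0.14 (SD, n = 3) in the controls, and its mean change was -0.10 (SE 0.09, 95% interval -0.29 to 0.10, limma adjusted p = 0.519). The 15 measured genes of cystine and cysteine supply beside SLC7A11 (transporters of cysteine and neutral amino acids, and enzymes that make or degrade cysteine) held 0 called higher and 2 called lower in the mean of the 3 siRNAs, against 10.2% of all genes in each direction, with a median of -0.10 against -0.0015 over all genes. SLC1A4, a neutral amino acid exchanger, fell by 0.29 ± 0.07, and CBS, which starts the route from homocysteine to cysteine, fell by 0.24 ± 0.06. The CBS call was lost without control replicate 1 or control replicate 2 (adjusted p up to 0.0549). The count of falls was 1 without control replicate 1 or control replicate 2 and 4 without control replicate 3. Both further bright SLC1A4 probe sets also fell, by 0.33 ± 0.08 and 0.22 ± 0.05 (adjusted p = 0.0140 and 0.0108 over all probe sets). The 2 dimmer ones, at mean levels of 6.49 and 5.01, gave 0.05 and -0.05 and did not pass.

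The next question was whether the transcripts of glutathione synthesis and recycling moved with SLC7A11. Over the 10 members the mean of the 3 siRNAs called 2, SLC7A11 and GCLM, both lower, which is 20% against 20.3% of all 19775 genes. The members' median was -0.08 against -0.0015 over all genes. Glutathione synthesis starts with glutamate-cysteine ligase, made of the catalytic subunit GCLC and the modifier subunit GCLM.

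GCLM read 10.90, 10.65 and 10.48 in the control arrays. It read 10.57, 10.40 and 10.37 with s18074, 10.37, 10.31 and 10.40 with s18075, and 10.35, 10.38 and 10.49 with s18076. The s18075 arrays lay below all controls, whereas arrays of both other siRNAs overlapped the lowest control. The mean change was -0.27 ± 0.08 (limma adjusted p = 0.0260), that is 83.0% of the control signal. With s18075 alone GCLM fell by 0.31 ± 0.09 (adjusted p = 0.0388), and with s18074 and s18076 the values were -0.23 and -0.26 (adjusted p = 0.137 and 0.0724). The s18075 call was lost without any 1 of 7 arrays (control replicates 1 and 2, the 3 s18075 arrays and replicate 2 of s18074 and of s18076, adjusted p up to 0.127). The mean call was lost without control replicate 1 or control replicate 2 (adjusted p up to 0.156), and in replicates 2 and 3 alone the change was -0.17 ± 0.06 (adjusted p = 0.117). Both further GCLM probe sets gave larger mean changes, -0.42 ± 0.06 on one (adjusted p = 0.000803 over all probe sets) and -0.36 ± 0.10 on the other (adjusted p = 0.0262). On the former the fall passed with every siRNA, at -0.32, -0.57 and -0.36 with s18074, s18075 and s18076.

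GCLC did not pass with any siRNA. Its 12 arrays lay between 10.20 and 10.38, and its mean change was 0.003 (95% interval -0.10 to 0.10). The other bright GCLC probe set gave -0.06 ± 0.05. GSR, which uses NADPH to turn oxidised glutathione back to the reduced form, gave -0.19 ± 0.07 in the mean (limma adjusted p = 0.0698), with control arrays at 9.78, 9.45 and 9.59 and knockdown arrays between 9.36 and 9.59. The s18075 arrays, between 9.36 and 9.40, lay below all controls. Without control replicate 2 the mean change passed at -0.27 (adjusted p = 0.0246), and without control replicate 1 it was -0.10 (adjusted p = 0.359). GPX4, the selenoenzyme that uses glutathione to reduce lipid peroxides in membranes, was not called: its arrays lay between 12.72 and 13.04, and its mean change was 0.01 (95% interval -0.11 to 0.13).

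**Figure D2:**
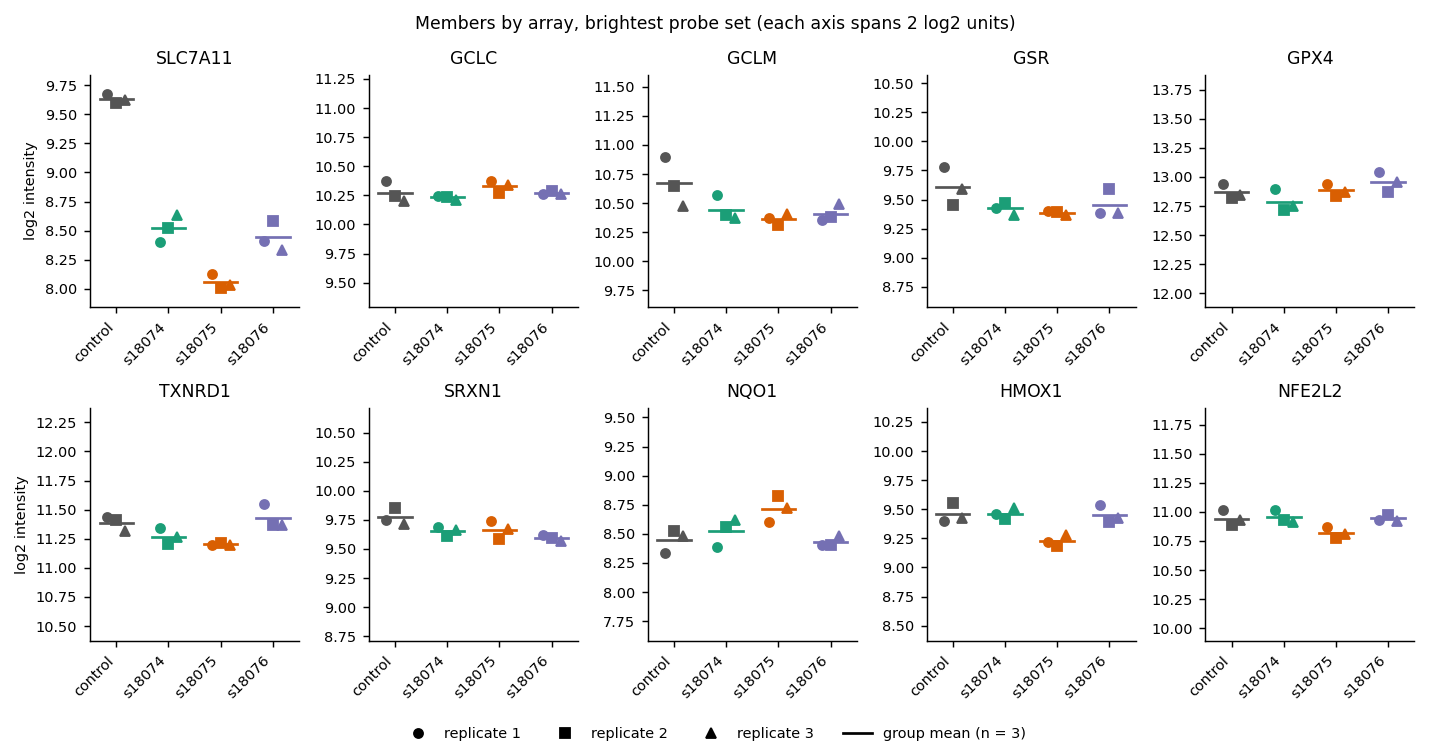
Log2 intensity (vertical axes, each spanning the same range) of the 10 members on their brightest probe sets in the 4 groups of 3 arrays, with symbols for replicates and bars for group means. SLC7A11 dropped from a control mean of 9.63 to between 8.06 and 8.52, while every GCLC array lay between 10.20 and 10.38.

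The wider glutathione list, 30 genes of its synthesis, turnover and use, held 5 called higher and 4 called lower in the mean of the 3 siRNAs, against 10.2% of all genes in each direction (median -0.04). GSTZ1, which uses glutathione in tyrosine breakdown, fell by 0.81 ± 0.06 (limma adjusted p = 1.64e-06) and was called with all 3 siRNAs, its control arrays lying between 9.40 and 9.48 and its knockdown arrays between 8.50 and 8.81. GPX3, the secreted glutathione peroxidase, rose by 0.49 ± 0.09, with 0.50, 0.26 and 0.71 for s18074, s18075 and s18076, of which s18075 did not pass (adjusted p = 0.148). GLO1 and HAGH, which with glutathione clear methylglyoxal in consecutive steps, rose by 0.28 ± 0.06 and 0.30 ± 0.05 and were called with every siRNA. The GLO1 call with s18074 was lost without control replicate 2 or 3 or s18074 replicate 1 or 2 (limma adjusted p up to 0.115), and the HAGH call with s18075 without control replicate 1 or 2 or s18075 replicate 2 or 3 (adjusted p up to 0.0826). The count of rises was 3 in replicates 2 and 3 alone, and it was 3 without the least favourable single array (control replicate 1, s18074 replicate 3, s18075 replicate 2 and s18076 replicate 3 each moved it by more than 1.5 times). The count of falls was 2 without control replicate 3.

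For thioredoxin and peroxiredoxin reduction the member transcripts were TXNRD1, the selenoenzyme that reduces thioredoxin, and SRXN1, which repairs overoxidised peroxiredoxins. TXNRD1 read 11.44, 11.41 and 11.31 in the controls, 11.34, 11.21 and 11.26 with s18074, 11.20, 11.21 and 11.20 with s18075, and 11.55, 11.37 and 11.37 with s18076. The s18075 arrays lay below all controls and the others overlapped them, but against the controls the change passed with no siRNA (-0.18 ± 0.06 with s18075, limma adjusted p = 0.0705). Under some alternatives the s18075 change did pass, among them quantile normalization and the replicate block (limma adjusted p = 0.0457 and 0.0344). TXNRD1 was higher with s18076 than with s18075 by 0.23 ± 0.06 (adjusted p = 0.0406), a call lost in replicates 2 and 3 alone (0.16 ± 0.06, adjusted p = 0.156). It was also lost without any 1 of 9 arrays, all but control replicates 1 and 3 and s18074 replicate 1 (adjusted p up to 0.133). The second TXNRD1 probe set was near the bottom of the scale, between 2.46 and 2.62.

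SRXN1 read between 9.72 and 9.85 in the controls. It read between 9.61 and 9.69 with s18074, 9.58 and 9.74 with s18075, and 9.57 and 9.62 with s18076. Its mean change of -0.13 ± 0.05 did not pass (limma adjusted p = 0.0737), but did under some alternatives, among them array weights (adjusted p = 0.0133). The change of -0.17 ± 0.06 with s18076 (adjusted p = 0.0563) likewise passed under some, among them quantile normalization (adjusted p = 0.0306). Of the 17 measured genes of the thioredoxin and peroxiredoxin systems beside these, 3 were called higher and 0 lower in the mean, against 10.2% of all genes in each direction (median 0.001). TXNRD2, PRDX4 and CAT gave -0.18 ± 0.07, -0.10 ± 0.04 and -0.11 ± 0.04 and did not pass (limma adjusted p = 0.103, 0.0987 and 0.0914). The 3 genes called higher were MSRB2 at 0.25 ± 0.05, MSRB3 at 0.20 ± 0.06 and MSRB1 at 0.19 ± 0.05, enzymes that reduce oxidised methionine. The next brightest MSRB3 probe set gave 0.03 (limma adjusted p = 0.787 over all probe sets). Dimmer MSRB3 probe sets gave 0.28, 0.33 and 0.12, of which only the last did not pass. The dimmer MSRB2 probe sets gave 0.09 and 0.08 and did not pass. MSRB3 and MSRB1 passed with s18076 alone among single siRNAs, at 0.51 and 0.36, and the F test between siRNAs called both (limma adjusted p = 0.000652 and 0.0204). For MSRB1 the F test call was lost without s18076 replicate 1 or 3 (adjusted p up to 0.0983). The mean call of MSRB3 was lost without control replicate 1 or 2 and that of MSRB1 without control replicate 1 (adjusted p up to 0.0968 and 0.142). Without control replicate 1 the list held 1 called gene.

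Classic NRF2 targets and NRF2 itself were then compared with each siRNA. With s18074, 1 of 10 members was called, SLC7A11, against 14.2% of all genes (6.67% higher and 7.55% lower). With s18076 it was again SLC7A11 alone, 1 of 10, against 18.9% of all genes (10.3% higher and 8.62% lower). With s18075, 4 of 10 were called against 16.9% of all genes (8.11% higher and 8.77% lower): SLC7A11, GCLM and HMOX1 lower, and NQO1 higher. That count was 2 without control replicate 1, s18075 replicate 1 or s18075 replicate 3, and 1 without s18075 replicate 2. SLC7A11 was the 1 member of 10 called with all 3 siRNAs in the same direction, against 6.65% of all genes (3.52% all higher and 3.13% all lower), and without control replicate 3 the count was 2. These contrasts share the control arrays.

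HMOX1, which breaks down haem, read 9.40, 9.55 and 9.43 in the controls. It read 9.46, 9.41 and 9.51 with s18074, 9.22, 9.19 and 9.28 with s18075, and 9.53, 9.39 and 9.42 with s18076. The s18075 arrays lay below those of every other group, which overlapped each other. HMOX1 fell by 0.23 ± 0.06 with s18075 (limma adjusted p = 0.0208), to 85.2% of the control signal, with 0.002 for s18074 and -0.01 for s18076. It was lower with s18075 than with s18074 by a log2 difference of -0.23 ± 0.06 (adjusted p = 0.0419). That call was lost without any 1 of 8 arrays (all but the controls and s18076 replicate 1). It was also lost in replicates 2 and 3 alone (-0.23 ± 0.07, limma adjusted p = 0.137). In replicates 2 and 3 alone the fall against the controls was -0.26 ± 0.07 and did not pass (adjusted p = 0.0528). The fall against the controls also did not pass without control replicate 2, s18075 replicate 1 or s18075 replicate 2 (adjusted p up to 0.0887).

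NQO1, a quinone reductase and a standard readout of NRF2 activity, read 8.34, 8.53 and 8.49 in the controls. It read 8.39, 8.56 and 8.62 with s18074, 8.60, 8.83 and 8.72 with s18075, and 8.41, 8.40 and 8.48 with s18076. The s18075 arrays lay above all controls. NQO1 rose by 0.27 ± 0.08 with s18075 (limma adjusted p = 0.0344), to 120% of the control signal, with 0.07 for s18074 and -0.02 for s18076, and the difference of s18076 from s18075 was -0.29 ± 0.08 (adjusted p = 0.0341), a call lost without s18075 replicate 2 or 3 or any 1 s18076 array. The rise was 0.27 ± 0.06 in replicates 2 and 3 alone (adjusted p = 0.0330), and it did not pass without control replicate 1, control replicate 3, s18075 replicate 2 or s18075 replicate 3 (adjusted p up to 0.138). Both further NQO1 probe sets gave changes of the same sign with s18075, 0.24 and 0.20, neither of which passed (adjusted p = 0.05004 and 0.0912 over all probe sets). Over all probe sets the brightest one also missed the threshold (adjusted p = 0.0524). NQO1 and HMOX1 thus moved in opposite directions with the same siRNA.

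NFE2L2 was not called with any siRNA. It read between 10.89 and 11.01 in the controls and between 10.77 and 11.01 in the knockdown arrays. The s18075 arrays, at 10.87, 10.77 and 10.81, lay below all controls. The share of all genes whose arrays lay apart from the controls was not taken, here or for the other members. The changes of NFE2L2 were 0.01 with s18074, -0.13 ± 0.05 with s18075 (limma adjusted p = 0.146) and 0.003 with s18076. The 2 further NFE2L2 probe sets were dim, between 4.82 and 5.67, and were not called in the mean.

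**Figure D3:**
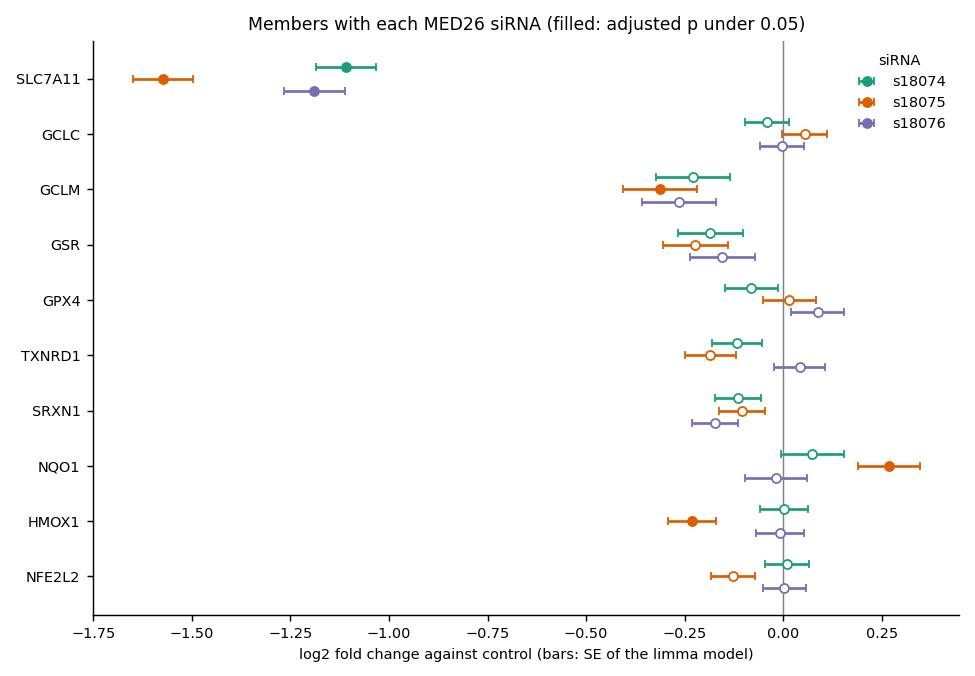
Log2 fold change against the control arrays (horizontal axis) of the 10 members with each MED26 siRNA (3 arrays against 3), bars giving the standard error of the limma model and filled points an adjusted p under 0.05. SLC7A11 lay between -1.57 and -1.11, and the other points lay between -0.31 and 0.27.

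The siRNAs were also compared directly. Between s18075 and s18074, 2 of 10 members were called (SLC7A11 and HMOX1, both lower with s18075) against 6.37% of all genes (2.82% higher and 3.55% lower). Between s18076 and s18075, 4 of 10 were called against 11% of all genes (6.57% higher and 4.44% lower): SLC7A11, HMOX1 and TXNRD1 higher and NQO1 lower with s18076. HMOX1 (0.22 ± 0.06, adjusted p = 0.0350) lost this call without any 1 of the s18075 arrays or s18076 replicate 1 or 3. In replicates 2 and 3 alone HMOX1 gave 0.18 ± 0.07 and did not pass (limma adjusted p = 0.194). Between s18076 and s18074, limma called 0 of 10 against 5.11% of all genes (2.84% higher and 2.27% lower). GPX4 and TXNRD1 gave 0.17 ± 0.07 and 0.16 ± 0.06 in that comparison and did not pass (limma adjusted p = 0.219 and 0.230). The F test between the 3 siRNAs called 2 of 10, SLC7A11 (adjusted p = 0.00246) and HMOX1 (0.0339), against 12.6% of all genes. HMOX1 lost this call without any 1 of 6 arrays (s18074 replicates 1 and 3, the 3 s18075 arrays and s18076 replicate 3) and in replicates 2 and 3 alone (adjusted p = 0.159).

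Among 30 further NRF2 target genes measured, 2 were called higher and 4 lower in the mean of the 3 siRNAs, against 10.2% of all genes in each direction (median -0.03). ABCC1, an exporter of glutathione conjugates, fell by 0.60 ± 0.05 (limma adjusted p = 6.34e-06), by 1.13 ± 0.06 with s18076 but only 0.29 and 0.38 with s18074 and s18075, and the F test between siRNAs called it (adjusted p = 3.09e-06). Its other probe set gave -0.69 ± 0.13. PIR, an iron-binding nuclear protein, fell by 0.39 ± 0.05 and was called with all 3 siRNAs. TRIM16, a ubiquitin ligase, fell by 0.29 ± 0.07, a call lost without control replicate 1 or control replicate 2. SQSTM1, the autophagy receptor p62 that binds KEAP1, rose by 0.42 ± 0.04, but its dimmer probe sets disagreed: the dimmest gave -0.38 ± 0.07 (adjusted p = 0.00308 over all probe sets), and averaged over all its probe sets the change was 0.03 (adjusted p = 0.705). The count of falls was 2 without control replicate 2 and 7 without the dimmest 40% of genes.

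Of 21 measured regulators and partners of NRF2, 4 were called higher and 1 lower in the mean, against 10.2% of all genes in each direction (median 0.01). BACH1, a repressor that competes with NRF2 for antioxidant response elements, averaged 9.29 ± 0.19 (SD, n = 3) in the controls and rose by 0.38 ± 0.08 (limma adjusted p = 0.00486), with 0.44, 0.22 and 0.49 for s18074, s18075 and s18076, of which s18075 did not pass (adjusted p = 0.166). Averaged over all its probe sets, both others being dim, BACH1 did not pass (0.11, adjusted p = 0.164). KEAP1, the adaptor that sends NRF2 to degradation, rose by 0.16 ± 0.05 (adjusted p = 0.0308) but passed with no single siRNA. The KEAP1 call was lost without control replicate 1, control replicate 3, s18075 replicate 2 or s18076 replicate 3 (adjusted p up to 0.110) and in replicates 2 and 3 alone (adjusted p = 0.142). BTRC, a further route of NRF2 degradation, rose by 0.20 ± 0.04, and RXRA, a nuclear receptor reported to restrain NRF2, fell by 0.31 ± 0.06, mostly with s18075 (-0.62 ± 0.07). The dimmer RXRA probe set gave -0.07 ± 0.07 in the mean and did not pass (limma adjusted p = 0.580 over all probe sets). Without s18076 replicate 2, and also in replicates 2 and 3 alone, 2 genes of this list were called lower.

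The ATF4 and cystine starvation list holds ATF4 itself, SLC7A11's other known regulator, and genes of the response around it. Not all of them are ATF4 targets, and ATF4 and the kinase gene EIF2AK4 are among those called lower. Of 24 measured, 12 were called lower and 3 higher in the mean of the 3 siRNAs, against 10.2% of all genes in each direction, with a median of -0.16. The list was chosen with earlier results of these data known, so these counts are a description and not a test. Lower calls were 10 to 12 without any 1 array. ATF4 itself read 13.73, 13.68 and 13.49 in the controls, 13.48, 13.40 and 13.40 with s18074, 13.15, 12.97 and 13.05 with s18075, and 13.37, 13.28 and 13.29 with s18076. All knockdown arrays lay below all controls, and those of s18075 were lowest. ATF4 fell by 0.37 ± 0.06 in the mean (limma adjusted p = 0.000772), by 0.58 ± 0.07 with s18075 and 0.32 ± 0.07 with s18076, while -0.21 ± 0.07 with s18074 did not pass (adjusted p = 0.0765).

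Of the called genes of that list, ASNS, asparagine synthetase, fell by 0.58 ± 0.07, SLC7A5, the large neutral amino acid transporter that also pairs with SLC3A2, by 0.51 ± 0.06, and SLC7A1, a cationic amino acid transporter, by 0.47 ± 0.04, each called with all 3 siRNAs. The other ASNS probe set read near the bottom of the scale, at 3.02, and gave 0.03 ± 0.05. VLDLR, a lipoprotein receptor, rose by 0.57 ± 0.08. With s18075, 14 of the 24 were called lower, with s18074 6 and with s18076 11, against 8.77%, 7.55% and 8.62% of all genes.

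**Figure D4:**
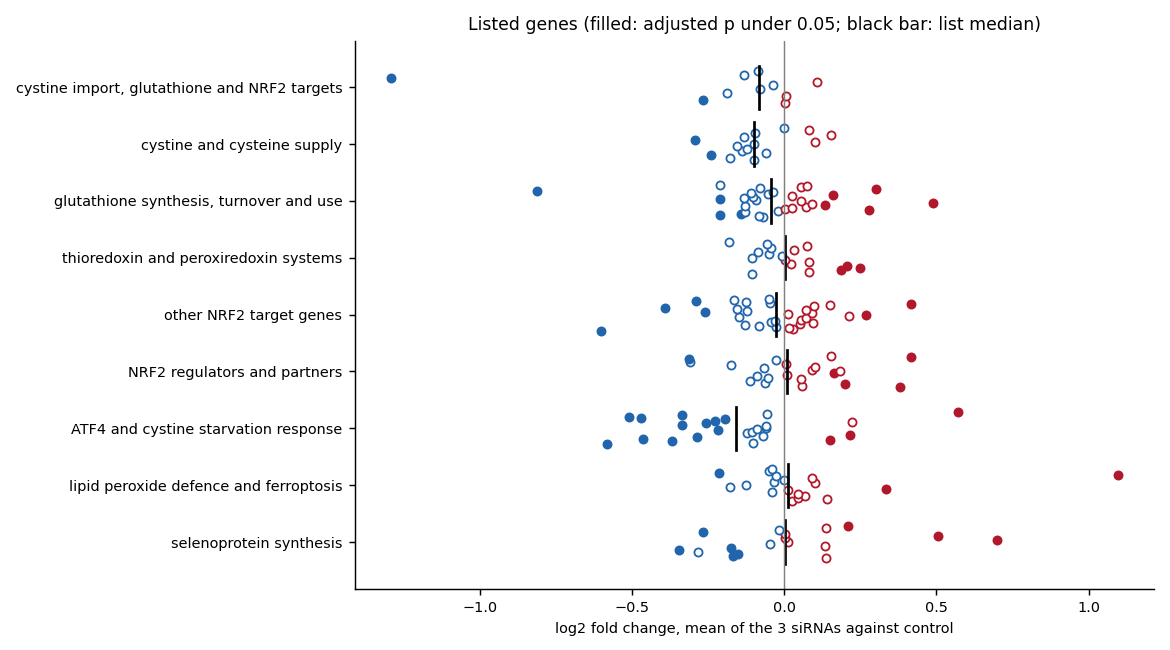
Log2 fold change in the mean of the 3 siRNAs against control (horizontal axis) of each measured gene of the members and of the 8 wider lists, with filled points for an adjusted p under 0.05 and black bars for list medians. SLC7A11 is the point at -1.29, and the ATF4 and cystine starvation list has its median at -0.16.

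Defence against lipid peroxides was described through the transcripts of 19 measured genes. In the mean 2 were called higher and 1 lower, against 10.2% of all genes in each direction (median 0.01). SLC40A1, the iron exporter ferroportin, rose by 1.097 ± 0.065, and GCH1, which starts synthesis of the radical-trapping cofactor tetrahydrobiopterin, rose by 0.33 ± 0.04, both with all 3 siRNAs. TFRC, the transferrin receptor, fell by 0.21 ± 0.05, a call lost in replicates 2 and 3 alone (adjusted p = 0.0713, limma). Selenoprotein genes and their synthesis factors, 17 measured, held 3 called higher and 5 lower, against 10.2% of all genes in each direction (median 0.002). SELENOP, a selenium carrier, rose by 0.70 ± 0.10 on its brightest probe set. It gave -0.12 ± 0.07 on the brightest one without a suffix for shared probes, which was dim at a mean level of 4.01. SELENOT, a thioredoxin-like protein of the endoplasmic reticulum, rose by 0.50 ± 0.13. Its control arrays were spread, at 11.786, 11.593 and 11.025, and its knockdown groups averaged between 11.96 and 11.99. The other SELENOT probe set gave 0.28 ± 0.06 (limma adjusted p = 0.00870 over all probe sets). SELENOH, a nuclear thioredoxin-like protein, fell by 1.00 ± 0.06 with s18075 and gave -0.08 and 0.05 with s18074 and s18076. SEPHS1, an enzyme related to selenophosphate synthetase, fell by 0.27 ± 0.09 on its brightest probe set, a call lost without any 1 of 8 arrays. Its other probe sets, of nearly equal brightness, gave -0.06 ± 0.06 and -0.11 ± 0.04 (adjusted p = 0.576 and 0.131 over all probe sets). The count of falls was 2 at its lowest among those 8, which were control replicates 1 and 2 and replicates 2 and 3 of s18074, and replicates 2 and 3 of s18075 and s18076.

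The genes whose levels were most like SLC7A11 over the 12 arrays were TRIB1 (Pearson r = 0.989), DOK3 (0.985), TCFL5 (0.979), SLC7A1 (0.979) and UGGT1 (0.971). These coefficients are descriptions without a test, since the 12 arrays fall into a control and a knockdown cluster. TRIB1, a pseudokinase, fell by 0.51, 0.71 and 0.48 with s18074, s18075 and s18076, and DOK3, an adaptor protein, by 0.80, 1.02 and 0.85. TCFL5, a transcription factor, fell by 0.27, 0.40 and 0.26, and UGGT1, which checks glycoprotein folding, by 0.29, 0.43 and 0.29. All were called with every siRNA and averaged lowest with s18075, which follows from choosing them for their likeness to SLC7A11 over the same arrays. For UGGT1 no other probe set gave a fall that passed, and averaged over all its probe sets the change was -0.002.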

How the data were processed

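Total RNA (300 ng) of 12 samples was measured on Affymetrix arrays of 54675 probe sets. The deposited values are linear probe set intensities, for which the submitters' processing notes name RMA and affy 1.24.2; RMA includes normalization between arrays, so shifts of all genes together cannot be read. Here log2 was taken with no pseudocount. Of the probe sets, 41091 name 1 gene in the platform annotation, 1801 name several, 11721 none and 62 are controls; the first kind was used, with the brightest probe set by mean log2 over the 12 arrays standing for each of 19775 genes. Limma 3.58.1 (R 4.3.3) fitted 4 group means with 8 residual degrees of freedom, and p-values were Benjamini-Hochberg adjusted over all genes. The script was tested on simulated data. The members, the gene lists and the rule for named genes (the members, MED26, SLC3A2, KEAP1, BACH1, ATF4, up to 4 called genes per list by size of change, and the 5 genes most correlated with SLC7A11) were chosen with earlier results of these data known. Alternatives covered scaling, a pseudocount of 16, leaving out the dimmest 40% of genes, other probe set rules, variance models, array weights, replicate blocks and leaving out each array. Promoter sequences are RefSeq's (GRCh38.p14).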

Additional observations from a re-analysis of the deposited data

Results flagged for a closer look

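Responses to the 3 MED26 siRNAs differed from each other for SLC7A11 (limma F test between siRNAs, adjusted p = 0.00246), HMOX1 (adjusted p = 0.0339) and MED26 itself (adjusted p = 0.000155). SLC7A11 and HMOX1 were lowest with s18075, where MED26 was least reduced on its brightest probe set.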

How the results depend on the processing

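SLC7A11 stayed lower and called with each siRNA and in their mean under every alternative run. The counts of members called were less stable, and the number of all genes called moved too. For s18076 it was 3741 as reported, 3749 after quantile normalization, 4304 under the trended model and 5022 with the block for replicate 1. For s18075 it was 3339 as reported, 3908 under the trended model and 2487 fitted with the control arrays alone. Without the dimmest 40% it was 4311 and 4006 for s18076 and s18075, out of fewer genes. The member counts below describe stability only. With s18076 against control, 3 members were called after quantile normalization, without the dimmest 40% of genes, under the trended and robust variance model and with a block for replicate 1 against 2 and 3, and 2 with a pseudocount of 16, the mean of all probe sets, array weights or the replicate block. The calls beside SLC7A11 were GCLM and SRXN1. All genes called were 4143 with the pseudocount, 2966 on the mean of all probe sets, 4452 with array weights and 4680 with the replicate block. In the mean of the 3 siRNAs, 4 were called with the pseudocount, without the dim genes and under the trended model, and 1 in replicates 2 and 3 only or at an adjusted p under 0.01. The members added were GSR and SRXN1. Of all genes, the mean called 4458 with the pseudocount, 4525 without the dim genes (out of fewer genes) and 4530 under the trended model. As reported it called 4023, and in replicates 2 and 3 only 3456. With s18075, 2 members were called with every probe set tested or in replicates 2 and 3 only, and 1 when fitted with the control arrays alone or at 0.01, whereas 6 were called without the dim genes and under the trended model, and 5 after quantile normalization, with the pseudocount, with array weights and with either block. The members added were TXNRD1 and, without the dim genes and under the trended model, GSR. Of all genes, s18075 called 3396 after quantile normalization, 3796 with the pseudocount and 4397 with array weights. It called 4362 with the replicate block and 4724 with the block for replicate 1. With every probe set tested it called 2811, and in replicates 2 and 3 only 2783. With s18074, and with all 3 siRNAs in 1 direction, the mean of all probe sets gave 2 members, against 2297 and 1068 of all genes. The F test called 4 members after quantile normalization, with the pseudocount, without dim genes, under the trended model and with either block, and 1 with every probe set tested or at 0.01. The members added were TXNRD1 and NQO1. Of all genes, the F test called 2499 after quantile normalization, 2961 with the pseudocount and 3301 without dim genes (out of fewer genes). It called 3102 under the trended model, 3377 with the replicate block and 1860 with every probe set tested. Between s18075 and s18074, 1 member was called on probe sets without _x or _s, with every probe set tested, in replicates 2 and 3 only and at 0.01. Of all genes, 1127 were called on probe sets without _x or _s and 920 with every probe set tested. Between s18076 and s18075, 1 member was called with every probe set tested and at 0.01, and 2 in replicates 2 and 3 only. Of all genes, 1682 were called with every probe set tested and 1598 in replicates 2 and 3 only. Between s18076 and s18074, 1 member was called with either block, against 1431 of all genes with the replicate block.

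The replicate numbers were not taken as a pairing, since not every same-number correlation was positive. Number 1 did tie arrays across groups, at 0.326 to 0.439, with all 4 replicate 1 arrays correlating best with their own number, whereas numbers 2 and 3 gave -0.024 to 0.248 and 0.0344 to 0.169; 5 of 12 arrays in all correlated best with their own number. Over all genes, s18075 against s18074 called 1259, but 812 on the mean of all probe sets, 1930 with array weights, 2065 with the block for replicate 1 and 816 in replicates 2 and 3 only. For s18076 against s18074, called at 1010, the last 2 settings gave 1663 and 635, and the block for replicate 1 raised the F test from 2489 to 3770. Fitting each siRNA with the controls alone gave 835 genes with all 3 siRNAs. At an adjusted p under 0.01, the counts were 1440, 1896 and 2190 for s18074, s18075 and s18076, 2402 for their mean, 622, 499 and 1144 for s18075 against s18074, s18076 against s18074 and s18076 against s18075, 650 for all 3 siRNAs and 1304 for the F test.

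Without any 1 array, members called ranged from 1 to 2 for s18074, s18076, s18075 against s18074, all 3 siRNAs and the F test, 1 to 5 for s18075, 1 to 3 for the mean and 1 to 4 for s18076 against s18075. Genes called, of all 19775, ranged from 1890 to 2930 for s18074, 2336 to 3506 for s18075 and 2833 to 3673 for s18076. The ranges were 3014 to 4092 for the mean, 997 to 1299 for all 3 siRNAs and 1721 to 2630 for the F test. They were 768 to 1328 for s18075 against s18074, 602 to 1072 for s18076 against s18074 and 1439 to 2291 for s18076 against s18075.

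Some genes that are no members changed sign with the probe set. On the mean of all probe sets, UGGT1 gave 0.0096 with s18074 and 0.020 with s18075, and TRIB1 gave 0.016 for s18075 against s18074 and -0.0011 for s18076 against s18075. On probe sets without _x or _s, values with s18074, s18075, s18076 and in the mean were -0.26, -0.12, -0.21 and -0.20 for SQSTM1, 0.014, 0.048, 0.042 and 0.035 for ASNS and -0.13, -0.18, -0.046 and -0.12 for SELENOP. There DOK3 gave 0.0054 with s18075, and for s18076 against s18075 BTRC gave 0.23 and SELENOH -0.00098. A gene called under neither setting was not counted as reversed when its sign changed. The cause was not tested. The other ASNS probe set read near the bottom of the scale. Further probe sets of SELENOP (mean levels 4.01 and 2.92) and TRIB1 (3.32 and 4.08) were also dim.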

Other observations

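The dimmer GSR probe set was highest in the replicate 1 array of every group, at 9.07 in the control, 8.96 with s18074, 8.92 with s18075 and 8.80 with s18076, whereas the other 8 arrays lay between 8.11 and 8.54.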
